A study of Homo sapiens with 10 samples.

Results

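Abundant pseudogenes of MDA-MB-231 cells, without those whose symbol names a ribosomal protein, were compared between cell protrusions and cell bodies. The members were chosen by measured values: rows of the table classed as pseudogene, with values of at least 5 in no fewer than 5 of the 10 libraries, and with a symbol that is not built like that of a ribosomal protein pseudogene. This left 171 of the 26134 rows of the table and of its 4251 pseudogene rows. Values are scaled TPM, a share of a library's transcripts after correction for gene length, multiplied by 1 factor per library, so a value does not give an amount per cell, and the read depth behind it is unknown.

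A pseudogene is a copy of a gene that no longer encodes the full protein. A processed pseudogene is a spliced messenger RNA that was copied back into the genome, without the introns and usually without the promoter of its source gene, while an unprocessed pseudogene arose by duplication of genomic DNA and a unitary pseudogene is a former gene with no working copy left. Abundant housekeeping messages have left the most processed copies, and a copy that is nearly identical to its source shares most of its reads with it. The value of such a row is therefore uncertain, as no source used here states how the reads of near-identical loci were divided.

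The 5 protrusion libraries and the 5 cell body libraries all came from MDA-MB-231, an established triple-negative human breast cancer line with a mesenchymal form. Single cells were trapped on a microfluidic chip, grew protrusions for 6 h, were fixed in 4% paraformaldehyde for 15 min, and both compartments were then separated by laser capture microdissection. Libraries were made from polyadenylated RNA with the low-input SMART-Seq v4 chemistry. The number of cells per library and any separate cultures behind the libraries are not stated, so p-values reflect library-to-library spread, which could be technical. Of the markers of the line, VIM averaged 588 scaled TPM in protrusions and 596 in cell bodies and PGR, which triple-negative lines lack, reached at most 0.01 in any library. Protrusion replicate 2 stood apart, with 25.2 scaled TPM of the nuclear RNA MALAT1 against 0.288 to 5.06 in the other protrusions and 47.5 to 143 in cell bodies. RAB13, a known protrusion message, had 197 to 297 scaled TPM in protrusions and 29.7 to 52.5 in cell bodies, so both genes separated all 10 libraries as labelled.

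Of the 171 members, 135 had their Ensembl identifier in GENCODE release 29 (GRCh38), and 36 did not. Among those found, 124 carried a pseudogene annotation, 71 of them as processed pseudogenes, 5 were annotated as misc_RNA of the Rfam family RF00017, the signal recognition particle RNA, 4 as protein-coding genes and 2 as processed transcripts. The class in the deposited table thus differed from this release for 11 members. A further 13 members had a ribosomal protein pseudogene name in GENCODE although their symbol in the table is a clone name. By annotation or sequence, 29 members had a ribosomal protein source, as the rule looked at symbols alone. A protein-coding source gene was found by sequence for 94 of the members with a pseudogene annotation, at a median identity of 96.1% and a lowest of 82.4%. In 13 of these the matched bases were identical to the source. Among these is AC006011.4, of whose exon bases 100% overlap those of its source POLR2D on the same strand. This row is therefore no separate copy of that gene, and it is kept in the later counts by pair, level, identity and position. Exon bases overlapped those of another annotated gene in 34 members, over 50% or more of their length in 6.

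The stretches that follow show how close the members discussed in detail are to their sources. Each is 90 bases long unless stated, starts within the coding sequence of the source, is read from GENCODE 29 transcripts 5′ to 3′, and has capitals where pseudogene and source differ. The first pair is TMSB4XP8, within chr4:90838903-90839037 (minus strand), and TMSB4X, which encodes the actin monomer-binding thymosin beta-4. The second is PPIAP22, within chr21:18857779-18858276 (plus strand), and PPIA, which encodes the prolyl isomerase cyclophilin A. The third is RP5-857K21.10, named MTATP6P1 in GENCODE, within chr1:633696-634376 (plus strand), a nuclear copy of the mitochondrial ATP synthase subunit gene MT-ATP6.
TMSB4XP8: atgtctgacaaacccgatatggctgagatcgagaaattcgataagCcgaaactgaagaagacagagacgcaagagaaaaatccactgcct
TMSB4X: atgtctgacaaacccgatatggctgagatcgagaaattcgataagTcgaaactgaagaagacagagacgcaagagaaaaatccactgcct
PPIAP22: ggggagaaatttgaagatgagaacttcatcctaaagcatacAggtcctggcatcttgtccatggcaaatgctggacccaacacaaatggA
PPIA: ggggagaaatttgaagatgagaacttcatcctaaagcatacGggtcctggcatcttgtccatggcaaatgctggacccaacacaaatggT
RP5-857K21.10: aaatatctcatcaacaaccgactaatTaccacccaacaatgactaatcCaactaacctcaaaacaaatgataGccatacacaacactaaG
MT-ATP6: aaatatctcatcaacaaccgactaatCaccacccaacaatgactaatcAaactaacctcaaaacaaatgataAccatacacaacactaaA
The printed windows held 1, 2 and 4 differing bases for TMSB4XP8, PPIAP22 and RP5-857K21.10 in this order, and the identity over the aligned coding sequence was 99.2%, 99.6% and 98.5%. In 2 further members the aligned coding bases are the same as in the source: TECRP1, within chr4:86949669-86950113 (minus strand) in GENCODE, whose 440 coding bases aligned to TECR hold no differing base beside 1 gap and of which 90 are shown, and RP11-466H18.1, within chr11:16974693-16975013 (minus strand), whose 318 aligned coding bases are those of RPL36A.
TECRP1: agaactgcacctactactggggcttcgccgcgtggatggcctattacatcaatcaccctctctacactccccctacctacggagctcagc

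Most of the summed level of the 171 members came from few rows. The 10 members with the highest mean held 87.1% of it, 18 members averaged 100 or more scaled TPM over the 10 libraries and 74 averaged under 10. The members together made up 2.28% to 2.97% of a protrusion library and 2.80% to 3.58% of a cell body library. The highest was AC004057.1, a copy of the small ribosomal subunit gene RPS26 with 100% identity over the matched bases, at 6052 ± 2108 scaled TPM in protrusions and 9137 ± 3397 in cell bodies (SD, n = 5 each). RP11-572P18.1, RPL21P16 in GENCODE, followed with 4314 ± 1343 in protrusions and 5411 ± 1538 in cell bodies. RP5-857K21.10, the MT-ATP6 copy, had 3086 ± 931 in protrusions and 4226 ± 1384 in cell bodies. None of these 3 passed the test of the compartments without pairing (limma, adjusted p of 0.118, 0.328 and 0.211). All 3 passed with the replicate number as a block, with adjusted p of 6.3e-06, 0.000584 and 0.00222 at changes of -0.58, -0.34 and -0.45, so all were lower in protrusions in the paired comparison. That direction turned for RP5-857K21.10 under quantile scaling (0.01) and for RP11-572P18.1 under scaling to the same sum (0.02) and quantile scaling, where it was called higher at a change of 0.20 (adjusted p = 0.0193).

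At the edge of the rule, AC116351.1, PPP1R14BP3 and RP3-449O17.1 were the last to enter, with a fifth-highest value of 5.00, 5.04 and 5.11 scaled TPM. RP11-2I17.1, AC069200.1 and LL22NC03-80A10.6 were the first left out, with 4.97, 4.95 and 4.94.

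Relative to cell bodies, 4 members were higher in protrusions and 74 were lower, by limma on log2(value + 1) over the 10894 rows that reached 1 in 5 libraries or more, at an adjusted p under 0.05. All 171 members were tested. Over all tested rows, 4.28% were called higher and 21.5% lower. The count of lower members could not be read against that share as it stands, because the rule admits a member through 1 compartment alone: 47 members reached 5 in all 5 cell bodies and in no protrusion, none did the reverse, and all 47 were called lower. Among the 60 members at 5 or more in all 10 libraries, 3 were higher and 13 lower, which is 5.00% and 21.7%. Of the 3715 rows of any class at the same level in all 10 libraries, 9.72% were higher and 6.84% lower. Over those 60 members the median change was -0.16 log2, against 0.20 over the 3715 rows. The difference between both sets was not tested. With the replicate number as a block, 11 members were higher and 82 lower, against 13.0% and 25.4% of all tested rows. The split also moved with scaling, to 17 higher and 68 lower when every library was scaled to the same sum, where 14.1% of all tested rows were higher and 17.2% lower and their median change moved from -0.03 to 0.24. Under quantile scaling it moved to 16 higher and 70 lower, against 21.8% and 16.3% of all tested rows at a median of 0.28.

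**Figure D1:**
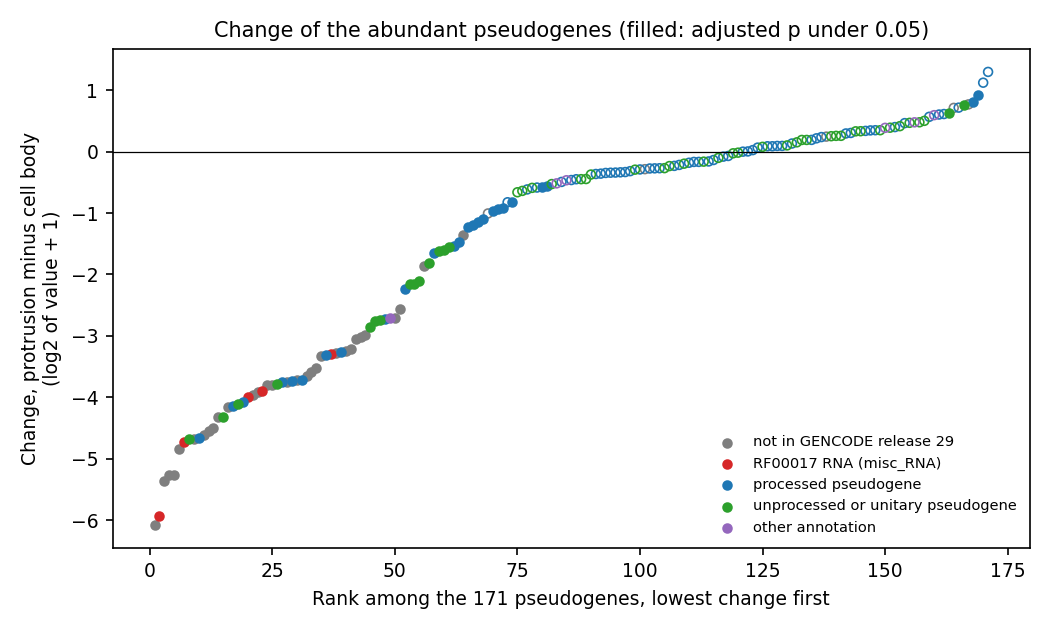
Change of each of the 171 abundant pseudogenes as log2(value + 1) in protrusions minus cell bodies (y axis), ranked from the lowest (x axis) and coloured by annotation in GENCODE 29; filled points had an adjusted p under 0.05. Of the 55 points below -2, 29 are identifiers missing from the release (grey) and 5 are RF00017 RNAs (red), and 4 filled points lie above 0.

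The annotation of the members differed along this ranking. Of the 36 members not in GENCODE 29, 31 were lower, none was higher, and the median change was -3.62. All 5 RF00017 RNAs were lower, with a median of -3.99. Only AC090519.4 of these RNAs had a protrusion at 5 or more, so the others were admitted through the cell bodies alone. Of the 124 members with a pseudogene annotation, 4 were higher and 37 lower, with a median of -0.27. Within those, the 53 that reached 5 in all 10 libraries held 3 higher and 12 lower members. The shares over all tested rows were 21.5% lower and 4.28% higher. Among the 3715 rows at 5 in all 10 libraries they were 6.84% lower and 9.72% higher. The counts by annotation share the selection described above and were not tested against each other.

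The largest falls were in clone-named loci. AC090519.7 had 2.44, 39.7, 4.78, 2.42 and 0 scaled TPM in protrusions 1 to 5, against 244, 440, 242, 284 and 527 in cell bodies 1 to 5. Every cell body was above every protrusion, and protrusion 2 was the highest of its group. The change was -6.08 log2 (SE 0.698, adjusted p = 8.16e-06). AC005399.1 had 0.442 to 5.98 scaled TPM in protrusions and 75.3 to 185 in cell bodies, a change of -5.37 (adjusted p = 3.22e-07), and RP5-886K2.1 had 0.730 to 12.02 in protrusions and 83.0 to 198 in cell bodies, a change of -5.26 (adjusted p = 1.05e-06). AC090519.6 and AL591516.5, which reached 5 in no protrusion and were admitted through the cell bodies alone, changed by -5.27 and -4.68. MGC2752 changed by -4.84. AC090519.7, AC005399.1, RP5-886K2.1 and MGC2752 each reached 5 in 1 protrusion only, replicate 2. Their 5 cell bodies alone met the rule, so their falls share that selection. None of these identifiers is in GENCODE 29, so no source gene, position or exon structure is given for them. Over the 31 such members that were lower, the mean in cell bodies lay between 9.43 and 347 scaled TPM and that in protrusions between 0 and 17.5.

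AC090519.4 was the most abundant of the RF00017 loci. It had 18.8, 80.9, 0.981, 17.5 and 6.97 scaled TPM in protrusions 1 to 5, against 657, 1075, 596, 746 and 1251 in cell bodies 1 to 5. The groups did not overlap, and protrusion 2 was again the highest protrusion. The change was -5.93 log2 (SE 0.699, adjusted p = 1.03e-05), and without both libraries numbered 2 the adjusted p was 1.68e-06. AC090519.2 had at most 1.95 scaled TPM in any protrusion and 23.2 to 66.2 in cell bodies, a change of -4.72. The others changed by -3.99 (AC109925.1), -3.90 (AL353898.3) and -3.30 (AC090519.1). Apart from AC090519.4, the RF00017 loci reached 5 in no protrusion and were admitted through the cell bodies alone. The signal recognition particle targets nascent secretory proteins to the endoplasmic reticulum, and its RNA is the ancestor of the Alu repeats that lie in many human introns and untranslated regions.
AC090519.4, at chr15:40585454-40585751 (minus strand), aligned with RN7SL1, a functional gene of that RNA, over 67 bases only. The 5 loci matched RN7SL1 over 67 to 78 bases of their 238 to 343, at an identity of 82.1% to 88.1%. The same loci matched, over 150 bases or more at 85% identity or more on either strand, transcripts of 366 to 2063 of the 19673 protein-coding genes searched. How reads of such loci were divided among similar copies is not stated. Rows named Metazoa_SRP in the table, which are not members, showed the same direction, with 97 of 102 tested rows lower and none higher, at a median of -3.40 log2. The table also has rows with the symbols RN7SL1 and RN7SL2, whose identifiers are not those of these genes in GENCODE 29. The row named RN7SL1, of the class antisense, was at 0 in all protrusions and at 5.94 to 14.8 scaled TPM in cell bodies (adjusted p = 4.35e-07). The row named RN7SL2 had 1.27 to 6.24 scaled TPM in protrusions and 0.668 to 16.6 in cell bodies, with a change of -0.41 (adjusted p = 0.626).

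**Figure D2:**
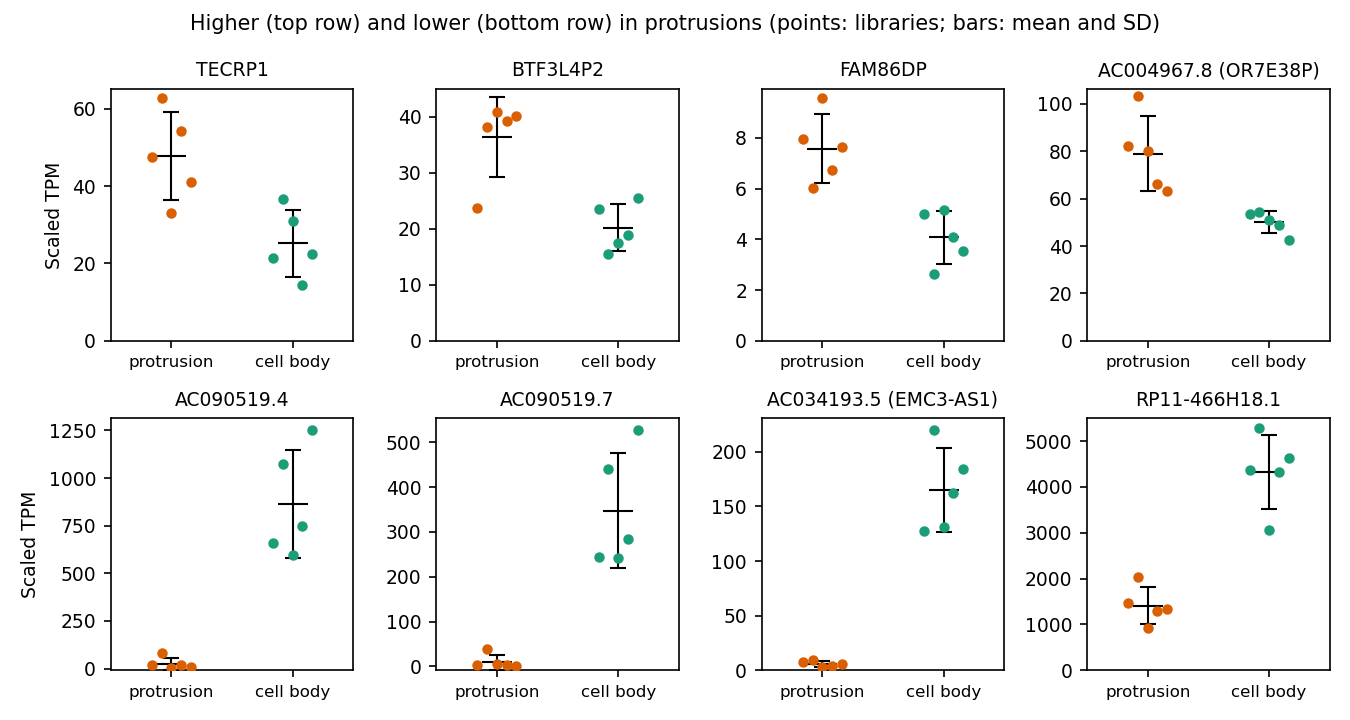
Scaled TPM (y axis) in 5 protrusion and 5 cell body libraries (x axis) of the 4 members higher in protrusions (top row) and of 4 members lower in protrusions (bottom row); points are libraries, bars the mean and SD. In the bottom row every cell body lies above every protrusion, while the points of TECRP1 and BTF3L4P2 overlap between compartments.

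Annotated pseudogenes were also among the largest falls. Apart from AC034193.5, the members named here reached 5 in no protrusion and were admitted through the cell bodies alone. Their falls and the lack of overlap share that selection. AC034193.5, named EMC3-AS1 in GENCODE and typed there as a transcribed unprocessed pseudogene on the other strand of EMC3, which encodes a subunit of the membrane protein insertase of the endoplasmic reticulum, had 2.95 to 9.20 scaled TPM in protrusions and 127 to 220 in cell bodies (change -4.69, adjusted p = 1.74e-07). RP11-44M6.3, named IRS3P after an insulin receptor substrate, had 0.133 to 2.01 in protrusions and 24.1 to 61.1 in cell bodies (change -4.66, adjusted p = 3.22e-07). LDHBP1, a copy of the lactate dehydrogenase B gene, had 0.051 to 2.54 in protrusions and 16.7 to 44.6 in cell bodies (change -4.15, adjusted p = 9.16e-07). In all 3 the compartments did not overlap. Chosen after their values were seen, FER1L4, a unitary pseudogene of the ferlin family of membrane fusion proteins, had 0.391 to 4.35 in protrusions and 32.6 to 66.4 in cell bodies, and INGX, a copy of an inhibitor of growth gene, had 0.251 to 3.21 in protrusions and 15.2 to 37.0 in cell bodies, with changes of -4.31 and -3.71. In INGX, 49.5% of the exon bases overlap those of TAF1, within which it lies on the other strand. Over all members, the groups did not overlap in 67 with lower protrusions and in 3 with higher protrusions, against 18.4% and 3.46% of all tested rows. Of those 67, 20 had a library at 5 or more in both compartments.

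The 4 members higher in protrusions were TECRP1, BTF3L4P2, FAM86DP and AC004967.8. TECRP1 is a copy of TECR, which encodes the trans-2-enoyl-CoA reductase of very long-chain fatty acid synthesis, and is named here because it is 1 of only 4. It had 47.4, 62.7, 33.1, 54.2 and 41.2 scaled TPM in protrusions 1 to 5, against 21.4, 36.7, 30.9, 14.5 and 22.5 in cell bodies 1 to 5. Protrusion 3 lay below cell body 2, so the groups overlapped, and each protrusion was above the cell body of the same number. The change was 0.93 log2 (SE 0.246, adjusted p = 0.0111). Its source TECR changed by 0.46 (adjusted p = 0.0578, or 0.00281 with the replicate block), and the ratio of pseudogene to source changed by 0.47 (SE 0.337, adjusted p = 0.335).
BTF3L4P2, identical over 345 aligned coding bases to BTF3L4, a relative of the nascent polypeptide-associated complex subunit BTF3, had 23.7, 38.1, 40.8, 39.3 and 40.1 scaled TPM in protrusions 1 to 5, against 23.5, 15.6, 17.4, 19.0 and 25.5 in cell bodies 1 to 5. Protrusion 1 was the only protrusion within the range of the cell bodies. The change was 0.82 (SE 0.200, adjusted p = 0.00671), that of BTF3L4 was 0.26 (adjusted p = 0.236), and that of the ratio was 0.56 (SE 0.214, adjusted p = 0.0855). FAM86DP, an unprocessed copy 89.1% identical to EEF2KMT, which encodes a methyltransferase of elongation factor 2, had 6.00 to 9.57 scaled TPM in protrusions and 2.64 to 5.15 in cell bodies, with a change of 0.77 (SE 0.214, adjusted p = 0.0151). EEF2KMT was higher too, at 14.2 ± 3.99 scaled TPM in protrusions and 7.75 ± 2.77 in cell bodies (SD, n = 5 each), a change of 0.82 (limma, adjusted p = 0.0354), and the ratio of both changed by -0.06 (SE 0.242, adjusted p = 0.892). AC004967.8, the olfactory receptor pseudogene OR7E38P in GENCODE, had 63.2 to 103 in protrusions and 42.7 to 54.3 in cell bodies, with a change of 0.63 (SE 0.165, adjusted p = 0.01). In FAM86DP and AC004967.8 the groups did not overlap. In AC004967.8, 61.02% of the exon bases overlap those of another annotated gene, AC004967.2.

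LSM12P1 had the largest positive change, 1.299 (SE 0.480), without passing the test (adjusted p = 0.0629, or 0.0227 with the replicate block). It is a copy of LSM12, a gene of the LSM family of RNA-binding proteins, with 100% identity over the matched bases. The pseudogene had 18.8, 18.2, 19.1, 16.3 and 13.3 scaled TPM in protrusions 1 to 5, against 10.5, 0.473, 10.6, 12.02 and 7.12 in cell bodies 1 to 5. The groups did not overlap, and cell body 2 was far below the others. Without that library the change was 0.72 with an adjusted p of 0.0171. LSM12 itself was lower in protrusions, at a change of -0.59 (SE 0.194, adjusted p = 0.0379).

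The metallothionein pseudogenes, a group formed after the values were seen, were lower in protrusions in all but 1 case, as were the coding metallothioneins. Metallothioneins are small cysteine-rich proteins that bind zinc and copper, and their genes form a cluster from which several pseudogenes derive. Of the 6 members, 5 were lower in protrusions and MT1CP was not called, and all 8 tested coding metallothionein genes were lower, at medians of -1.55 and -1.78 log2. Of all tested rows, 21.5% were lower. MT1L reached 5 in no protrusion, so it was admitted through the cell bodies alone and its lower call follows from that selection. MT1P3, a processed copy on another chromosome than the coding cluster, had 92.2, 141, 28.6, 70.8 and 29.5 scaled TPM in protrusions 1 to 5, against 702, 760, 329, 285 and 217 in cell bodies 1 to 5. All protrusions were below all cell bodies. The change was -2.73 (SE 0.453, adjusted p = 0.000263), and 29.9% of the exon bases of this locus overlap those of MMP24OS.
MT1L had 0.059 to 1.03 in protrusions and 5.97 to 14.3 in cell bodies, a change of -2.74 (adjusted p = 1.78e-06), and MT1JP had 6.00 to 17.1 in protrusions and 21.7 to 57.3 in cell bodies, a change of -1.55 (adjusted p = 0.00105). The calls of MT1P1 (change -1.54, adjusted p = 0.0394) and MT2P1 (change -1.23, adjusted p = 0.0400) were lost under quantile and median-of-ratios scaling, without a filter on low values and with 6 of the 10 libraries left out singly, and that of MT2P1 also when libraries were scaled to the same sum or both numbered 2 were left out. The highest adjusted p over all alternatives was 0.105 and 0.108 for these members, and the count of 5 lower metallothionein pseudogenes became 4 or 3. MT1CP had 4.62 to 21.7 in protrusions and 3.27 to 70.2 in cell bodies, with the highest value of each compartment in replicate 2 (change -0.66, adjusted p = 0.503).
The coding genes were far more abundant: MT2A, the most abundant one, had 5461 to 14917 scaled TPM in protrusions and 15622 to 37966 in cell bodies, and MT1E had 1430 to 4520 in protrusions and 5478 to 13666 in cell bodies, with changes of -1.34 and -1.71. MT1P3, within chr20:35218009-35218185 (plus strand), and MT2P1, within chr4:68376323-68376505 (plus strand), are shown beside the coding genes they most resemble, with differing bases in capitals.
MT1P3: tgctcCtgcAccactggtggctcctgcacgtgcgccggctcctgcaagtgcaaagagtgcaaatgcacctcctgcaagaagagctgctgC
MT1E: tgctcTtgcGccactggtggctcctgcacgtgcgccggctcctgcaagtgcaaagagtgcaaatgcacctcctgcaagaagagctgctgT
MT2P1: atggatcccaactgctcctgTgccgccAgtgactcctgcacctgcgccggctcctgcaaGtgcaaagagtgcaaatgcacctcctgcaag
MT2A: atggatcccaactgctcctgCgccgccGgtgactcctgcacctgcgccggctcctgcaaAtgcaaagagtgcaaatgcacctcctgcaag
Both windows held 3 differing bases, and over the aligned coding sequence MT1P3 had 5 differing bases and 9 gapped positions of 181 (identity 92.3%, gaps included) and MT2P1 5 differing bases of 183 (97.3%). The ratio of MT1P3 to MT1E changed by -1.02 log2 (SE 0.262, adjusted p = 0.0219) and that of MT1L to MT1E by -1.03 (SE 0.243, adjusted p = 0.0135). The selection of MT1L through the cell bodies alone also bears on its ratio. The ratio of MT1CP to MT1G, which resembles it most at 84.95% identity, was higher by 3.29 (SE 0.517, adjusted p = 0.00102), as MT1G itself changed by -3.95.

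**Figure D3:**
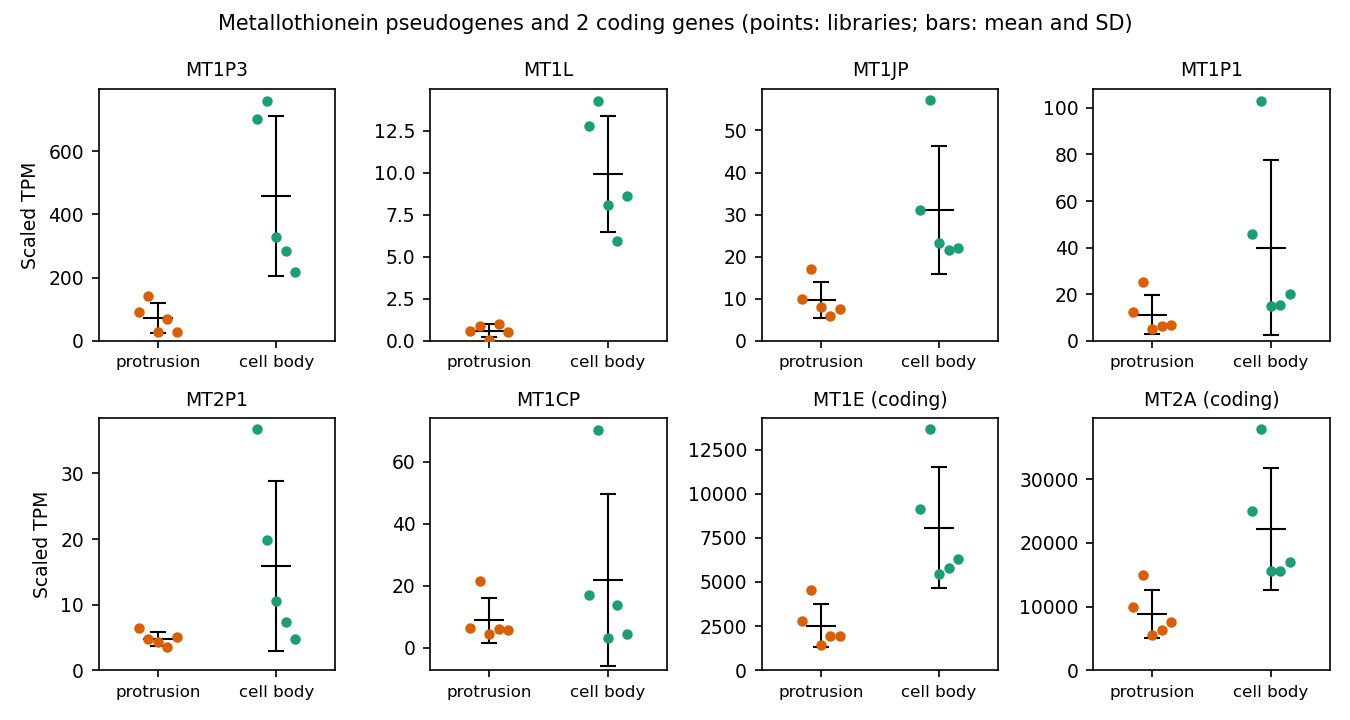
Scaled TPM (y axis) of 6 metallothionein pseudogenes and of the coding genes MT1E and MT2A in 5 protrusion and 5 cell body libraries (x axis); points are libraries, bars the mean and SD. All protrusions lie below all cell bodies for MT1P3, MT1L and MT1JP, and replicate 2 is the highest point of most panels.

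The pseudogenes of other abundant messages listed next changed less than the 5 lower metallothionein pseudogenes. Some other copies fell more, among them RP11-83J16.1 at -3.76 (source RPL36A) and RP11-227H4.4 at -3.31 (source RPL38). TMSB4XP8 had 105, 114, 46.0, 78.1 and 89.4 scaled TPM in protrusions 1 to 5, against 211, 200, 143, 173 and 174 in cell bodies 1 to 5, with no overlap. It changed by -1.10 (SE 0.223, adjusted p = 0.00156), and TMSB4X by -0.98. PPIAP22 averaged 1394 ± 147 scaled TPM in protrusions and 2067 ± 281 in cell bodies (SD, n = 5 each), a change of -0.56 (SE 0.139, adjusted p = 0.00672), and PPIA changed by -0.70. HMGB1P5, a copy of the chromatin protein gene HMGB1, averaged 72.9 ± 7.09 in protrusions and 109 ± 14.4 in cell bodies, a change of -0.58 (SE 0.146, adjusted p = 0.00842). The calls of PPIAP22 and HMGB1P5 were lost when libraries were scaled to the same sum (adjusted p of 0.276 and 0.382), and that of PPIAP22 also under quantile scaling.
H3F3AP4, a copy of the histone H3.3 gene H3F3A, averaged 1525 ± 265 in protrusions and 1706 ± 244 in cell bodies, and RP11-742N3.1, RPS28P7 in GENCODE, averaged 2365 ± 644 in protrusions and 2613 ± 536 in cell bodies, both without passing the test (adjusted p of 0.5 and 0.610). RP11-3P17.3, RPL23AP42 in GENCODE, averaged 438 ± 93.3 in protrusions and 411 ± 85.02 in cell bodies, at an adjusted p of 0.758. FABP5P7, a copy of a fatty acid-binding protein gene, averaged 91.4 in protrusions and 79.0 in cell bodies, at an adjusted p of 0.586, and DHFRP1, a copy of the dihydrofolate reductase gene, 26.1 in protrusions and 17.7 in cell bodies, at an adjusted p of 0.110 (or 0.0108 with the replicate block).
Copies of ferritin heavy chain (FTH1P1 and FTH1P5), of the complex III subunit UQCRFS1 (UQCRFS1P1), of the initiation factor EIF1AX (EIF1AXP1) and the keratin pseudogene KRT121P averaged between 5.48 and 8.70 scaled TPM in each compartment and did not pass the test.
Nuclear copies of the coding genes of the mitochondrial genome, whose messages encode subunits of the respiratory chain, were not called either. MTND1P23 had 33.0 to 110 scaled TPM in protrusions and 83.3 to 215 in cell bodies (change -0.59, adjusted p = 0.223, or 0.0167 with the replicate block), and MTND2P28 had 44.9 to 97.8 in protrusions and 41.1 to 109 in cell bodies (change -0.03, adjusted p = 0.958). The ratio of RP5-857K21.10 to MT-ATP6 was higher in protrusions by 0.19 (SE 0.0516, adjusted p = 0.0301), as MT-ATP6 changed by -0.64 (adjusted p = 0.108, or 0.000166 with the replicate block).

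Because a pseudogene may share reads with its source, the ratio between them was fitted in every library. Where the symbol names the source, 184 pairs over all pseudogene rows could be fitted, of which 41 belonged to members. Among the 41, 4 ratios were higher in protrusions and 7 were lower, against 8.7% and 13.6% of the 184 pairs. All 7 lower ratios belonged to members that reached 5 in no protrusion, so they were admitted through the cell bodies alone and their count is no result about the members. The largest fall was that of LDHBP1, whose source LDHB changed by 0.08 (adjusted p = 0.759): the ratio changed by -4.23 (SE 0.471, adjusted p = 7.25e-05). The ratio of RBM22P2, a copy of a splicing factor gene, changed by -3.32 (SE 0.305, adjusted p = 2.63e-05), with 0.015 to 1.48 scaled TPM in protrusions and 8.90 to 18.05 in cell bodies.
PI4KAP1 and PI4KAP2, duplicates of the phosphatidylinositol 4-kinase gene PI4KA, had ratios to it that changed by -2.78 and -2.37 log2 (adjusted p of 2.63e-05 and 6.25e-05), and the ratio of COX7BP1 to the cytochrome c oxidase subunit gene COX7B changed by -1.87 (adjusted p = 0.00289). None of RBM22, PI4KA and COX7B passed the test, at changes of 0.07, 0.21 and 0.00. The other lower ratios were those of GUSBP3 and PKD1P6, at -1.76 and -1.57.
The higher ratios were those of CA5BP1 at 2.87 (SE 0.532, adjusted p = 0.00260), LSM12P1 at 1.89 (adjusted p = 0.0359), FTH1P1 at 0.60 (adjusted p = 0.0155) and GAPDHP64 at 0.43 (adjusted p = 0.0285). In these 4 pairs the source was lower in protrusions, at log2 changes of -2.47 for CA5B, -0.59 for LSM12, -0.60 for FTH1 and -0.61 for GAPDH, while the pseudogenes themselves were not called. CA5BP1 had 4.08 to 12.9 scaled TPM in protrusions and 2.81 to 9.02 in cell bodies, against 0.086 to 1.72 in protrusions and 5.62 to 12.5 in cell bodies for CA5B, a mitochondrial carbonic anhydrase. The count of 4 became 2 when protrusion replicate 3, 4 or 5 was left out.

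With sources found by sequence in place of the symbol, an alternative chosen after seeing the data, 401 pairs could be fitted, 90 of them with members. Of the 90, 8 ratios were higher in protrusions and 10 lower, against 6.48% and 8.48% of the 401 pairs. Of the 10 lower ratios, 3 belonged to members at 5 in no protrusion. This covers clone-named members. RP11-83J16.1 and RP11-227H4.4, copies of the large ribosomal subunit genes RPL36A and RPL38, had ratios to their sources that changed by -3.14 and -2.75 log2 (adjusted p of 1.48e-05 and 7e-05). In RP11-227H4.4, 29.9% of the exon bases overlap those of another annotated gene, AC021660.2.
RP11-466H18.1, the second RPL36A copy, had 1457, 2025, 918, 1284 and 1336 scaled TPM in protrusions 1 to 5, against 4364, 5280, 3060, 4333 and 4638 in cell bodies 1 to 5. The groups did not overlap, and the change was -1.65 (SE 0.204, adjusted p = 1.61e-05). RPL36A had 803 to 1736 in protrusions and 1305 to 2546 in cell bodies, a change of -0.62 (adjusted p = 0.0510, or 2.32e-05 with the replicate block), and the ratio fell by 1.03 (SE 0.0946, adjusted p = 3.18e-05) although the aligned coding sequence is the same in both. RP11-347C12.2, SMG1P5 in GENCODE, was higher against the kinase gene SMG1 by 1.86 (adjusted p = 0.000962), with 8.32 to 11.97 scaled TPM in protrusions and 7.15 to 11.2 in cell bodies, while SMG1 had 0.251 to 1.501 in protrusions and 4.41 to 7.52 in cell bodies.
Across the 90 pairs, which are genes and not independent replicates, 64 pseudogenes changed in the same direction as their source, and Pearson's r between both changes was 0.401. These points share libraries, and near-identical pairs may share reads. Changes leaned negative, in 120 of the 171 members, and some sources recur, PPIA in 5 pairs and PMS2 in 4. How many pairs would agree without a link between pseudogene and source was not tested.

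**Figure D4:**
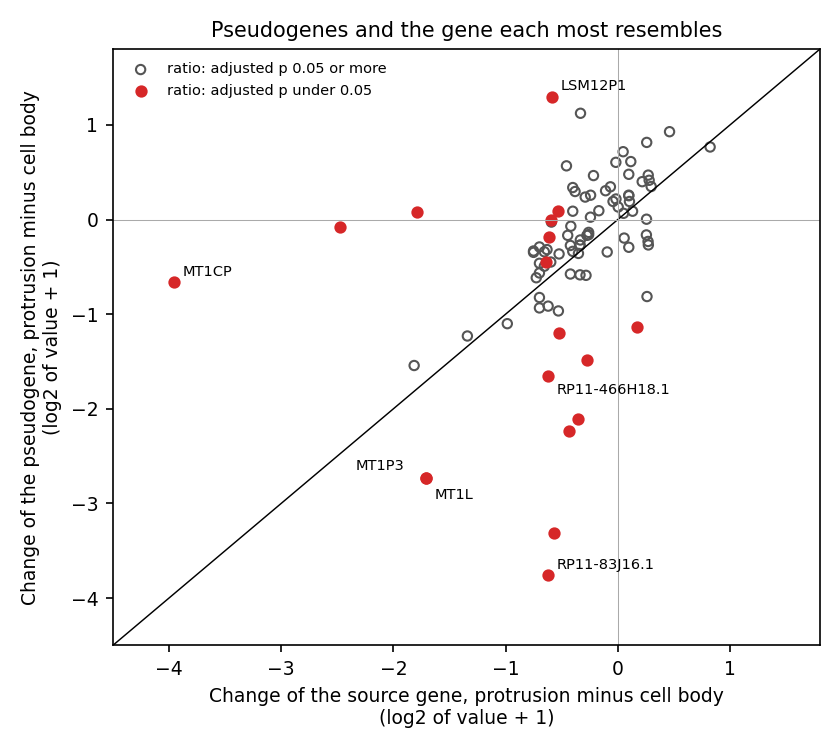
Change of each pseudogene (y axis) against that of the coding gene it most resembles (x axis), both as log2(value + 1) in protrusions minus cell bodies, for 90 pairs; the line marks equal change, and filled red points are pairs whose ratio had an adjusted p under 0.05. LSM12P1 and MT1CP lie far above the line and RP11-83J16.1 far below it, while most open points lie near it.

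The level of the pseudogene was above that of its source in 17 of the 90 pairs, of which 4 had a ribosomal protein source and 8 an identity of 98% or more. Among these is AC006011.4 at 3.32 times POLR2D, whose exon bases it shares, so that ratio is not between separate copies. RP11-572P18.1 averaged 15.5 times the level of RPL21 over the 10 libraries and AC004057.1 averaged 12.7 times that of RPS26, both with 100% identity over the matched bases. H3F3AP4 averaged 5.06 times H3F3A, which had 272 ± 69.4 scaled TPM in protrusions and 367 ± 72.7 in cell bodies. At the other end, 33 of the 90 pseudogenes lay under 0.01 times the level of their source, and the median of the ratio was 0.0301.

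The members were also divided by their identity to the source, which their choice did not use. Of 13 members at 100%, 2 were higher and 2 lower, and of 23 members from 98% to under 100%, none was higher and 2 were lower. The lower members at 100% include AC006011.4, whose exon bases all overlap those of its source POLR2D. Of 24 members from 95% to under 98%, 8 were lower, and of 34 members under 95%, 2 were higher and 9 lower. Of the 30 members with a pseudogene annotation and no source by these criteria, 16 were lower and none higher. Members admitted through the cell bodies alone, with no protrusion at 5, made up 13 of these 16, 4 of the 8 and 2 of the 9 lower ones, and none of those at 98% or more. Over all tested rows 21.5% were lower and 4.28% higher. These shares were not tested against each other.

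By position, 38 of the 71 processed pseudogenes lie within the span of a protein-coding gene of GENCODE 29, 16 on the same strand and 22 on the other. Of the 16 on the same strand, 8 were lower and 1 was higher, with a median change of -0.59. These 8 include AC006011.4, which lies within POLR2D, its own source. Of the 22 on the other strand, 5 were lower and 1 was higher (median -0.18), and of the 33 outside coding genes, 8 were lower and none was higher (median -0.23). Of these lower members, 3 of the 8 on the same strand, none of the 5 on the other strand and 4 of the 8 outside coding genes reached 5 in no protrusion. Over all tested rows 21.5% were lower and 4.28% higher, and the positions were not tested against each other. Examples on the same strand were RBM22P2 within HMGB1, RP11-466H18.1 within PLEKHA7 and MT1P1 within FANCC, all lower, and BTF3L4P2 within TANC1, which was higher. Whether reads of the enclosing genes' introns contributed to these rows was not tested.

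**Figure D5:**
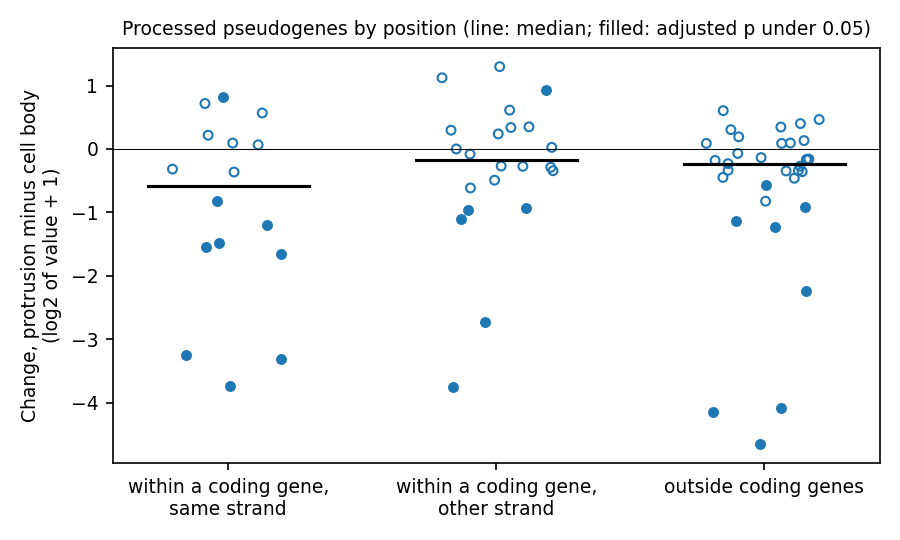
Change of the 71 processed pseudogenes as log2(value + 1) in protrusions minus cell bodies (y axis), by their position relative to protein-coding genes of GENCODE 29 (x axis); lines are medians and filled points had an adjusted p under 0.05. The medians were -0.59 within coding genes on the same strand, -0.18 on the other strand and -0.23 outside.

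Of the 171 members, 101 had their highest protrusion value in replicate 2, the library with the highest MALAT1 of its group, and so did 54 of the 74 that were lower. That library also had the highest sum over all rows of any protrusion, 1.10e+06 against 737343 to 936453 scaled TPM. It had 10471 rows at 1 or more, against 9124 to 9378 in the other protrusions. The share of all tested rows that were highest there is not given, so these counts are no result about the members. Without both libraries numbered 2, 7 members were higher and 76 lower, against 4.62% and 22.5% of all tested rows.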

How the data were processed

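RNA-seq values of 5 protrusion and 5 cell body libraries of MDA-MB-231 were taken from the table the authors deposited. No source names its unit. Low values (under 2) fell on a regular grid, 100% of them within 0.00051 of a multiple of its spacing in every library, as TPM to 2 decimals times 1 factor per library would give, so the deposited values are called scaled TPM. They are not counts, depth is unknown, and no count model was run. Tools named in the submitters' processing notes, in no stated role, are StringTie 1.3, HISAT2, FastQC 0.10.1 and cutadapt 1.10. Genome build, annotation and strandedness: not given in the sources used here. Columns of the authors' own comparison were not used.

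Rows with 1 or more in at least 5 libraries were fitted with limma 3.58.1 (R 4.3.3) using log2(value + 1), a trend of the variance with the mean and Benjamini-Hochberg adjustment over all 10894 rows. Changes are protrusion minus cell body, and this scale understates those of low rows. The pair fit used the difference of both log2 values. Both fits were checked on simulated data. Sources were found by symbol, or with BLAST 2.17.0 against coding transcripts of GENCODE 29, at 80% identity over 50% of the pseudogene or more. Python 3.11.15, pandas 2.3.3, Biopython 1.88 and matplotlib 3.10.9 were used otherwise.

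Libraries with the same number were treated as pairs, which the labels do not state. Their deviations from the group means correlated at 0.236 to 0.577, each best with its own number. The highest correlation with another number was 0.289, for replicate 3. Fits with the replicate block rest on this inferred pairing. Alternatives were other pseudocounts, filters, scalings and levels of the rule, the replicate block, no trend, and each library or both numbered 2 left out. Members and lists were chosen with earlier results of these data known. Named are the largest calls without overlap, the most abundant members, the 2 highest of each family of sources, the members next to the level rule and the largest ratio changes; other names were chosen after their values were seen.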

Additional observations from a re-analysis of the deposited data

Results flagged for a closer look

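Within the 5 libraries of a compartment, 10 extreme values stood apart from the other 4 by more than 0.71 of the range, the 95% limit of Dixon's test, in 88 groups examined (44 named members in 2 compartments). Chance gives about 1 in 20. Of the 10, 6 were the value of protrusion replicate 2. AC090519.4 had 80.9 scaled TPM there, against 0.981 to 18.8 in the other protrusions, and AC090519.7 had 39.7 against 0 to 4.78. RP5-886K2.1 had 12.02 in that library against 0.730 to 2.00, LDHBP1 had 2.54 against 0.051 to 0.495, PI4KAP1 had 4.17 against 0.627 to 1.51, and RBM22P2 had 1.48 against 0.015 to 0.388. MALAT1 was also highest there of the protrusions, and its part in these values was not tested.

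AC116351.1 had 4.195 in protrusion replicate 1, against 0 to 0.916 in the other protrusions, and 27.1 in cell body replicate 2, against 5.00 to 9.52 in the other cell bodies. BTF3L4P2 had 23.7 in protrusion replicate 1, against 38.1 to 40.8 in the other protrusions. MTND1P23 had 33.0 in protrusion replicate 3, against 93.2 to 110 in the others.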

How the results depend on the processing

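The count of 4 members higher in protrusions became 17 with libraries scaled to the same sum, 16 under quantile scaling, 9 with median-of-ratios scaling, 11 with the replicate block and 7 without both libraries numbered 2, and lay between 4 and 6 with single libraries left out. Of all tested rows, 14.1%, 21.8%, 10.4%, 13.0% and 4.62% were higher in these settings in this order. With single libraries left out, 2.36% to 5.96% of them were higher. The count of 74 lower members lay between 68 and 82 under other scalings, filters, pseudocounts and the block, and between 70 and 76 with single libraries left out. Of all tested rows, 15.2% to 25.4% were lower in the former settings and 19.6% to 23.6% in the latter. The count of lower members was 112 of 332 at a level of 2 in the rule, 44 of 96 at a level of 10 and 13 of 60 at 5 in all 10 libraries, as these rules admit other members. Of all rows at 5 in all 10 libraries, 6.84% were lower. The shares of all rows at the levels of 2 and 10 are not given. The 4 higher ratios by symbol became 2 with a pseudocount of 0.1, between 2 and 4 with single libraries left out and 8 with sources found by sequence. The count of 7 lower ratios lay between 6 and 10. With the replicate block 5 ratios were higher and 7 lower. The causes of these shifts were not tested.

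Of the 78 called members, 7 lost the call in at least 1 alternative. None of them changed sign under the block or a scaling. With the replicate block, 15 members gained a call and none lost one. Of the 44 named members, 27 kept direction and call in all 20 alternatives. Only uncalled members turned sign, with these log2 changes. Scaled to the same sum, GAPDHP64 had 0.12, H3F3AP4 0.19, RP11-742N3.1 0.20, MTND2P28 0.33 and RP11-572P18.1 0.022. Under quantile scaling, GAPDHP64 had 0.16, H3F3AP4 0.13, RP11-742N3.1 0.17, RP5-857K21.10 0.011 and RP11-572P18.1 0.20. MTND2P28 had 0.12 with median-of-ratios scaling, FTH1P1 had -0.0017 with a pseudocount of 5, and UQCRFS1P1 had -0.067 without both libraries numbered 2. With single libraries left out, EIF1AXP1 ranged from -0.46 to 0.66, FTH1P1 from -0.069 to 0.071, MTND2P28 from -0.27 to 0.18, RP11-3P17.3 from -0.016 to 0.17 and UQCRFS1P1 from -0.16 to 0.14. Depth is unknown, so values near 0 cannot be given a detection limit.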

Other observations

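Of the sequence-defined sources, 4 had 3 or more members. The 5 copies of PPIA all had negative changes, from -0.93 to -0.29 log2, and 2 of them passed the test, where 21.5% of all tested rows were lower. The calls of these 2, PPIAP22 and AP000662.9, were lost under scaling to the same sum and under quantile scaling. RP11-24M17.3, also among the 5, had a change of -0.82 at an adjusted p of 0.0906 (limma), or 0.00271 with the replicate block. The 4 pseudogenes of PMS2, a DNA mismatch repair gene, had changes of -0.29 to 0.48 and none passed, while the 3 copies of RPL21 had changes of -0.34 to 0.34 and the 3 of RPS26 of -0.58 to -0.27, again with none past the threshold without pairing.

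Of the 4 members annotated as protein-coding in GENCODE 29, LINC00085, named SPACA6 there after a sperm acrosome protein, was lower in protrusions at a change of -2.71 (limma, adjusted p = 1.47e-05). LINC00085 reached 5 in no protrusion and was admitted through the cell bodies alone. TMEM120A, CTD-2119F7.2 (HNRNPA1P48) and FAM103A2P (RAMACL) had changes of 0.48, 0.39 and 0.59 without passing the test (for FAM103A2P, limma adjusted p = 0.112, or 0.0087 with the replicate block).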
